A study of Mus musculus with 4 samples.

Results

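Ifih1, Eif2ak2, Zbp1, Adar and Mx1 are genes of proteins that recognise foreign or unusual nucleic acids, or act against viruses. RefSeq lists Mx1, however, as a transcribed pseudogene in the mouse reference strain. They were taken as 5 of the 11138 genes measured in mouse SVEC cells given lipopolysaccharide (LPS), which comes from the outer membrane of Gram-negative bacteria. The members are the spots whose only gene symbol in the array annotation is one of these names. That gave 12 spots of 6 oligonucleotides, since each oligonucleotide was spotted 2 times and Eif2ak2 had 2 of them. SVEC is an established line of cultured endothelial cells, the cells that line vessels.

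Amplified RNA of LPS-treated cells and of control cells was labelled with the dyes Cy5 and Cy3 and hybridised together. The groups were LPS for 24 h against control (2 arrays, 50 ng/ml) and LPS for 4 h against control (2 arrays, with the dose of 50 ng/ml stated for 1 of them). In each group the first array carried LPS in Cy5 and the other, called a dye reversal in the labels, carried LPS in Cy3. No separate cultures are named, so each time point counts as 1 RNA pair, and the SD given with a mean is the technical spread of its 2 arrays.

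The table gave a log2 ratio of the dyes per spot, and the reversed arrays were turned in sign so that a positive value means higher with LPS. That direction is likely only, since it follows the dyes in the labels; under the other convention all signs turn. The deposited arrays of a pair correlated over all spots at r = -0.042 at 24 h and -0.23 at 4 h. After turning, the arrays of a pair correlated across genes at 0.10 at 24 h and 0.48 at 4 h, where genes are not independent replicates. With ratios and no intensities, neither a level in a sample, nor a faint spot, nor the cell type of the culture could be checked. The members were chosen by their mean ratios of LPS over control on these arrays, at 24 h and at 4 h, so every value of theirs is a description with no test.

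Cells detect viral RNA and DNA inside the cytosol with receptors that lead to interferon, and interferon in turn raises the level of those receptors and of effector proteins that block viral growth. LPS can set off the same interferon programme through the receptor Tlr4 and its adaptor Ticam1. Ifih1 (MDA5) is a helicase that binds long double-stranded RNA. Zbp1 binds nucleic acids in the Z form and can start cell death through Ripk3. Eif2ak2 (PKR) is a kinase that double-stranded RNA switches on and that halts translation by phosphorylating eIF2 alpha. Adar edits adenosine to inosine in double-stranded RNA, which keeps the cell's own RNA from being sensed. Mx1, where the gene is intact, gives a dynamin-like GTPase that blocks influenza virus.

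The promoter sequences of 3 of the members, Ifih1, Eif2ak2 and Adar, are in RefSeq's table for GRCm38.p6, as windows of 250 bases before to 50 after the transcript start. They are shown because interferon acts on its target genes through short elements near the start. Capitals mark the core of the interferon-stimulated response element (GAAA, then 2 bases of any kind, then GAAA) and the core of the gamma-activated sequence, TTCNNNGAA, each searched on both strands. For Adar, which has 3 windows, the 1 window with a match is printed.
Ifih1, chr2:62646206-62646505, minus strand: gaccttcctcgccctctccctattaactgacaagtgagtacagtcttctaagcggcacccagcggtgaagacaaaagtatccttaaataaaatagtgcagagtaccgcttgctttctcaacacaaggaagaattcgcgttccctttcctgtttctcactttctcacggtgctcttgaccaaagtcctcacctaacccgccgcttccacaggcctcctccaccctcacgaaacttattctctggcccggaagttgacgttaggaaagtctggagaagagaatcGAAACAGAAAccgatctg
Eif2ak2, chr17:78882523-78882822, minus strand: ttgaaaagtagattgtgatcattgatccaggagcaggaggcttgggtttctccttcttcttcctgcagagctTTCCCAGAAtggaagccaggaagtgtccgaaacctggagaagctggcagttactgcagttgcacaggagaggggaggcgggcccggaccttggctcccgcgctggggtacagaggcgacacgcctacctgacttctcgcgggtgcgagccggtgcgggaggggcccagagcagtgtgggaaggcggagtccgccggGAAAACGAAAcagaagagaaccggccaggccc
Adar, chr3:89730468-89730767, plus strand: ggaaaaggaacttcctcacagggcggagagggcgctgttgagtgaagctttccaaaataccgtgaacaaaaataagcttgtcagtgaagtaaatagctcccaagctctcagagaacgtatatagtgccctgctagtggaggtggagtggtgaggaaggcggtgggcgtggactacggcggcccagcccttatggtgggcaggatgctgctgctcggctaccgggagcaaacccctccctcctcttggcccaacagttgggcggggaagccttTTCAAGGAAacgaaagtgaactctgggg
The response element core lay 32 bases downstream of the start in Ifih1 and 18 bases downstream in Eif2ak2. The gamma-activated core lay 178 bases upstream of the start in Eif2ak2 and 22 bases downstream in Adar. No match of the first core overlapped one of the other in these windows. Over all 32851 RefSeq windows, 3.44% held the response element core and 8.30% the gamma-activated core. A match describes these letters only. Near matches were not searched, so a window without a marked core, as for the response element in Adar, may still hold a variant of it.

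Ifih1 lay above 0 on every array, as did Mx1. At 24 h its spots read 2.24 and 2.03 with LPS in Cy5, and 0.71 and 1.25 with LPS in Cy3. At 4 h they read 1.76 and 2.55 with LPS in Cy5, and 4.05 and 4.20 with LPS in Cy3. All 8 values were thus above 0, with the highest on the reversed 4 h array. The mean log2 ratio was 1.56 ± 0.82 at 24 h (SD, 2 arrays), or 2.95-fold, and 3.14 ± 1.39 at 4 h, or 8.80-fold. At 24 h, 98.8% of genes lay below it, and at 4 h 99.0%.

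The times of Ifih1 hardly separated. Its higher array at 24 h, at 2.14, and its lower array at 4 h, at 2.15, were almost equal, although the means differed by -1.58 (24 h minus 4 h). The arrays of a time differed by more than that at 4 h, where the LPS in Cy5 array gave 4.45-fold and the reversed array 17.4-fold.

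Zbp1, the sensor of Z-form nucleic acids, met the 2-fold rule as higher at 4 h and not at 24 h. A gene met this rule as higher when its mean log2 ratio was at least 1 and each array was at least 1.5-fold higher. At 24 h the Zbp1 spots read -0.06 and 0.03 with LPS in Cy5, and -0.15 and -0.25 with LPS in Cy3. At 4 h they read 1.43 and 1.28 with LPS in Cy5, and 1.5 and 1.81 with LPS in Cy3. The lowest of the 4 spots at 4 h stood well above the highest at 24 h, so the groups did not overlap.

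The means of Zbp1 were -0.11 ± 0.13 at 24 h and 1.51 ± 0.21 at 4 h, or 0.93-fold and 2.84-fold. Its arrays agreed within an SD that was below the median of all genes at both times, 0.32 at 24 h and 0.31 at 4 h. At 4 h it had 93.5% of genes below it, and at 24 h 37.4%.

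Eif2ak2, the double-stranded RNA kinase, showed the reverse order of the times, and each of its 2 oligonucleotides gave it. The oligonucleotide designed on AK009862 read 2.42 and 2.22 at 24 h with LPS in Cy5, and 0.96 and 0.99 with LPS in Cy3. At 4 h it read 0.67 and 0.57 with LPS in Cy5, and -0.58 and -0.25 with LPS in Cy3. Its 4 h arrays thus lay on opposite sides of 0, each with both spots. The oligonucleotide designed on NM_011163 read 0.93 and 0.83 at 24 h with LPS in Cy5, and 0.95 and 1.75 with LPS in Cy3. At 4 h it read 0.07 and 0.10 with LPS in Cy5, and -0.06 and -0.16 with LPS in Cy3. All of its 24 h spots were above all of its 4 h spots.

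Both oligonucleotides of Eif2ak2 were past the 2-fold rule at 24 h, at means of 1.65 ± 0.95 and 1.11 ± 0.33, or 3.13-fold and 2.17-fold, where 1.8% of all oligonucleotides were. Neither was at 4 h, at 0.10 ± 0.73 and -0.01 ± 0.14, where 8.85% of all were. The means of the 2 oligonucleotides at 24 h differed by less than the SD of the first and by more than that of the other. Averaged over its 4 spots, the gene lay at 1.38 ± 0.31 at 24 h, or 2.61-fold, and at 0.04 ± 0.43 at 4 h. The share of genes below it was 98.3% at 24 h and 54.1% at 4 h.

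Adar, the RNA editing enzyme, was near the threshold at both times, and at 24 h its value came from 1 array. At 24 h its spots read -0.26 and 0.21 with LPS in Cy5, but 2.78 and 1.06 with LPS in Cy3. At 4 h they read 1.24 and 0.63 with LPS in Cy5, and 1.02 and 1.33 with LPS in Cy3. The 4 h spots were all above 0, while the 24 h arrays did not overlap each other.

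The mean of Adar was 0.95 ± 1.38 at 24 h, which missed the rule, and 1.06 ± 0.17 at 4 h, or 2.08-fold, which met it. Its SD at 24 h was larger than that of 95.0% of genes. Without the array with LPS in Cy3, Adar lay at -0.02 at 24 h, and without the other array at 1.92. Its spots on the reversed 24 h array differed by 1.72, where 92.1% of spot pairs differed by no more than that.

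Mx1, the gene of the antiviral GTPase, was above control at 24 h on both arrays, to unequal degrees. At 24 h its spots read 2.40 and 2.30 with LPS in Cy5, and 0.51 and 0.98 with LPS in Cy3. At 4 h they read 0.86 and 0.57 with LPS in Cy5, and 0.19 and -0.06 with LPS in Cy3. At each time the array with LPS in Cy5 gave the higher pair of spots.

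The mean of Mx1 was 1.55 ± 1.14 at 24 h, or 2.92-fold, and 0.39 ± 0.46 at 4 h, or 1.31-fold. At 24 h the single arrays gave 5.11-fold and 1.67-fold. RefSeq lists Mx1 as a transcribed pseudogene in the reference strain of GRCm38.p6. Mx2, its closest relative on the array, lay at 0.40 ± 0.42 at 24 h and 0.36 ± 0.66 at 4 h. The letters of the oligonucleotides were not used here, so signal shared between the Mx genes could not be checked.

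**Figure D1:**
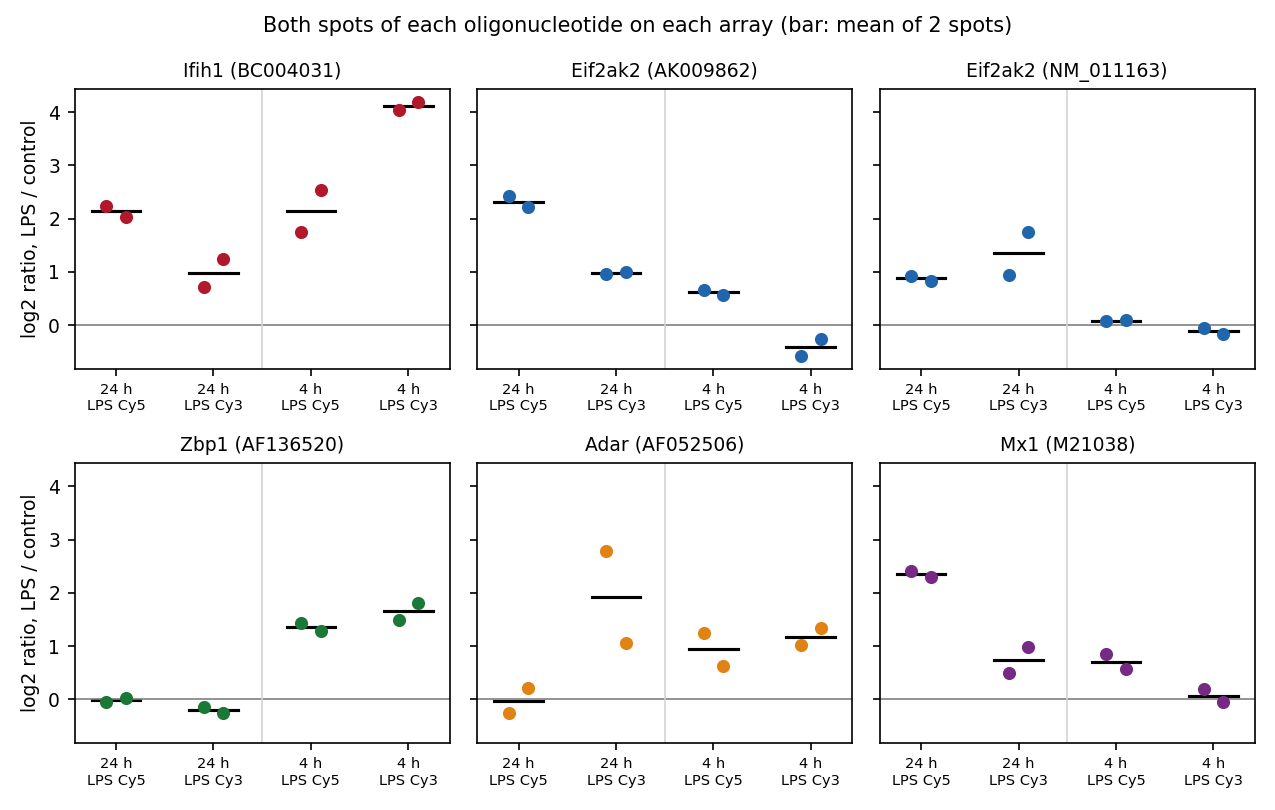
Log2 ratio of LPS over control (vertical axis) for both spots of each of the 6 oligonucleotides on the 4 arrays, with the mean of the 2 spots as a bar. Zbp1 is near 0 at 24 h and between 1.28 and 1.81 at 4 h, both oligonucleotides of Eif2ak2 are higher at 24 h, and Adar at 24 h is high on the array with LPS in Cy3 only.

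Counted together, 3 of the 5 members were higher with LPS at 24 h (Ifih1, Eif2ak2 and Mx1) and 0 lower, where 1.68% of all genes met the rule as higher and 0.799% as lower. At 4 h, 3 of 5 were higher (Ifih1, Zbp1 and Adar) and 0 lower, where 8.74% and 5.77% of all genes did. The members' median was 1.38 at 24 h and 1.06 at 4 h, beside 0.02 and -0.0013 over all genes. These counts follow from how the genes were chosen, and nothing is read from them. Without the 24 h array that carried LPS in Cy5, Ifih1 (0.98) and Mx1 (0.74) were short of 2-fold and Adar was past it. Without the reversed 4 h array, Adar (0.94) was short of it. Ifih1 was the only member past the rule at both times, as were 46 genes in all, or 0.413%.

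The members differed in how far the arrays of a time, with the dyes exchanged, disagreed. This disagreement is given as the value with LPS in Cy5 minus that with LPS in Cy3, divided by 2. Each dye orientation had its own array, so dye and array cannot be told apart in it. At 24 h it was 0.81 for Mx1, 0.58 for Ifih1, 0.22 for Eif2ak2, 0.09 for Zbp1 and -0.97 for Adar. Over all genes its median size was 0.23 at that time. So Ifih1 and Mx1 read higher with LPS in Cy5 and Adar with LPS in Cy3. At 4 h it was -0.98 for Ifih1 and between -0.15 and 0.32 for the others, beside a median size of 0.22 over all genes.

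**Figure D2:**
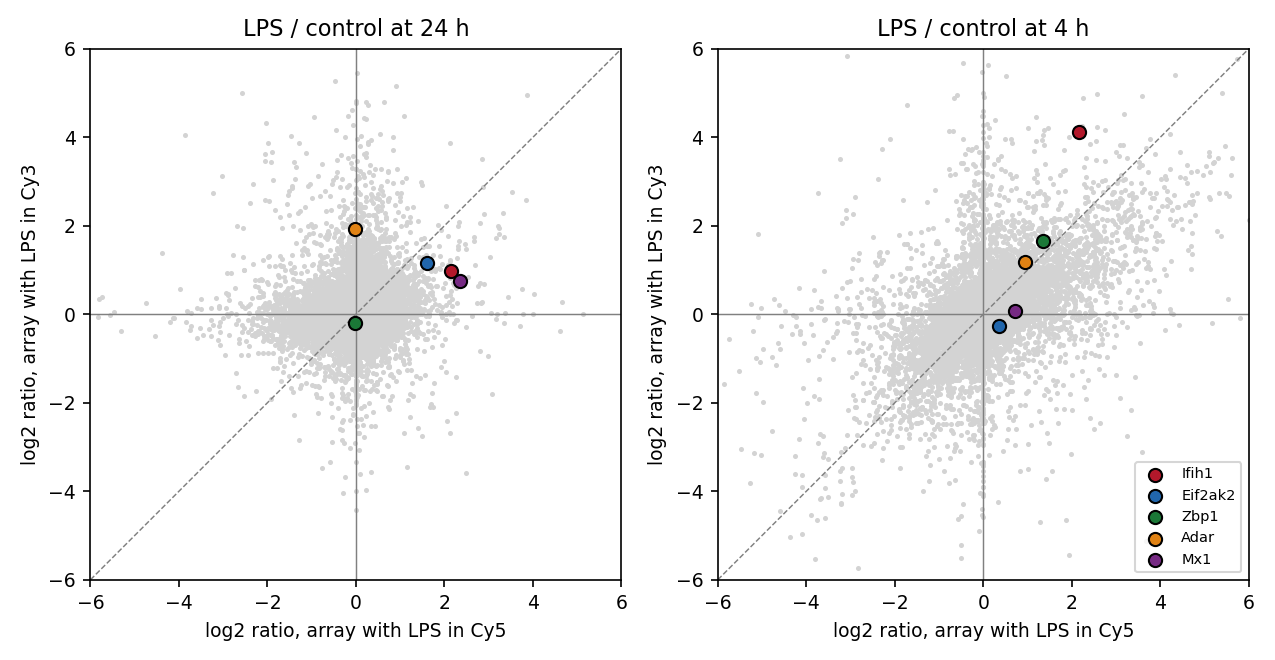
Log2 ratio of LPS over control with LPS in Cy5 (horizontal) and with LPS in Cy3 (vertical) at 24 h and at 4 h. Grey points are all genes, colours the 5 members, and the dashed line marks equal values; 2 genes at 24 h and 41 at 4 h lie outside the axes of 6. Adar at 24 h stands on the vertical axis line, at -0.02 and 1.92.

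Set side by side, the times placed the members in different orders. At 24 h the order of the means was Ifih1 (1.56), Mx1 (1.55), Eif2ak2 (1.38), Adar (0.95) and Zbp1 (-0.11). Ifih1, Mx1 and Eif2ak2 differed from their neighbours among them by less than either SD. Adar lay below Eif2ak2 by more than the SD of Eif2ak2 (0.31) and less than its own (1.38), and Zbp1 lay below Adar by less than the SD of Adar. At 4 h the order was Ifih1 (3.14), Zbp1 (1.51), Adar (1.06), Mx1 (0.39) and Eif2ak2 (0.04). There each neighbour differed from the next by more than either of their SDs, except Mx1 and Eif2ak2, which lay closer than their SDs of 0.46 and 0.43.

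The difference between the means, 24 h minus 4 h, was 1.34 for Eif2ak2 and 1.16 for Mx1, against -1.61 for Zbp1, -1.58 for Ifih1 and -0.11 for Adar. For each but Adar the means were at least 2-fold apart and the arrays of the times did not overlap. For Mx1 and Ifih1 the nearest arrays were almost equal, and single spots of the times overlapped. Mx1 had 0.74 at 24 h beside 0.71 at 4 h, and Ifih1 2.14 at 24 h beside 2.15 at 4 h. Of all genes, 8.23% were separated in this way as higher at 24 h and 9.99% as lower at 24 h. Under the centring on abundant transcripts described below, the differences of Zbp1, Ifih1 and Adar turned in sign. The labels do not say if the times used the same control RNA.

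**Figure D3:**
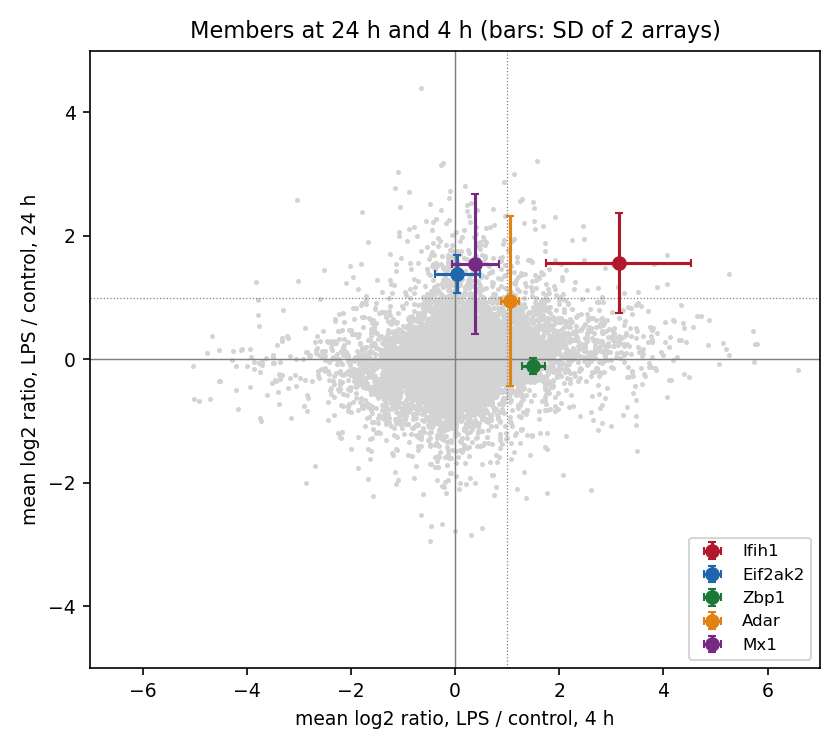
Mean log2 ratio of LPS over control at 4 h (horizontal) and at 24 h (vertical), with bars for the SD of 2 arrays. Grey points are all genes, and dotted lines mark a mean of 1; Ifih1 lies above 1 at both times, Eif2ak2 and Mx1 at 24 h, and Zbp1 and Adar at 4 h.

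The other genes of the members' pathways were read from 10 lists. Of 135 listed genes, 87 were measured under a single symbol, apart from the members. At 24 h, 1 of the 87 (1.15%) was past the rule as higher and 0 lower, and at 4 h 4 (4.60%) were higher and 3 (3.45%) lower. Each of these shares was below that of all genes given above. The median of the 87 was 0.13 at 24 h and 0.10 at 4 h.

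Close to Ifih1, the list of RIG-I-like receptor signalling had 8 measured genes, with medians of 0.23 at 24 h and 0.32 at 4 h. None was past the rule at 24 h. At 4 h Trim25, a ubiquitin ligase that activates RIG-I, read 2.09 and 1.31, a mean of 1.70 ± 0.55. Rnf135 (Riplet), another ligase of that receptor, read -1.58 and -0.70, a mean of -1.14 ± 0.62, but its 2 oligonucleotides gave -2.08 and -0.21. Dhx58 (LGP2), the relative of Ifih1 that lacks the signalling domains, lay at 0.27 ± 0.96 at 24 h and 0.71 ± 0.89 at 4 h and did not meet the rule. Ddx58 and Mavs were not analysed here.

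Of the toll-like receptor list, 4 genes were measured and none met the rule. Tlr3, the endosomal receptor for double-stranded RNA, had a mean of 1.54 ± 1.83 at 24 h that rested on 1 array (2.83 with LPS in Cy5 and 0.25 with LPS in Cy3). At 4 h it lay at 0.62 ± 1.02. The list's medians were 0.14 and 0.24.

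The DNA sensing and clearance list had 15 measured genes, with medians of 0.26 at 24 h and 0.32 at 4 h. Samhd1, which breaks down the nucleotides that viruses need for DNA synthesis, alone met the rule at 24 h, with arrays at 1.88 and 1.04 and a mean of 1.46 ± 0.59. It lay at 0.89 ± 0.05 at 4 h. At 4 h Hmgb1, an abundant chromatin protein, lay at 2.67 ± 0.79 and Rnaseh2c, a subunit of the enzyme that removes RNA from DNA, at 2.08 ± 0.28.

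None of the 11 measured genes of the eIF2 alpha kinase list met the rule at either time, with medians of -0.01 at 24 h and 0.12 at 4 h. Eif2ak3 (PERK), the kinase of the endoplasmic reticulum, lay at 0.27 ± 0.34 at 24 h and 0.74 ± 0.52 at 4 h. None of 10 other double-stranded RNA binding proteins met it, with medians of 0.08 and -0.12. Among the OAS and RNase L genes, which sense double-stranded RNA and cut RNA, 3 were measured, with medians of 0.73 at 24 h and -0.08 at 4 h and none past the rule. Oas2 was not analysed here.

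Of 10 deaminases beside Adar, none was past the rule at 24 h, and Apobec1, a cytidine deaminase, was lower at 4 h. It read -2.22 and -2.10 at 4 h, a mean of -2.16 ± 0.09, and lay at -0.36 ± 0.36 at 24 h. Other means of this list reached -1.47 at 24 h and 1.20 at 4 h, where not both arrays passed 1.5-fold. Adarb1 (ADAR2), the other active adenosine deaminase of this family, lay below 0 on all 4 arrays, at -0.46 ± 0.13 at 24 h and -0.42 ± 0.05 at 4 h, and did not meet the rule.

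Among 9 partners of Zbp1 in cell death, none met the rule. Ripk3, the kinase that Zbp1 recruits, lay at 0.68 ± 0.99 at 24 h and 0.94 ± 0.57 at 4 h. Mlkl, which Ripk3 phosphorylates, lay at -0.06 ± 0.80 at 24 h and 0.74 ± 1.13 at 4 h, with arrays on opposite sides of 0 at each time.

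In the list of Mx2 and dynamin family GTPases, with 4 genes measured, none was past the rule at 24 h and Mfn1, a mitochondrial fusion GTPase, was lower at 4 h at -1.03 ± 0.48. Of 13 other antiviral effectors, Plscr1, a phospholipid scramblase, was higher at 4 h at 2.03 ± 1.10, and lay at 0.98 ± 0.74 at 24 h. The medians of that list were 0.32 at 24 h and 0.62 at 4 h.

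**Figure D4:**
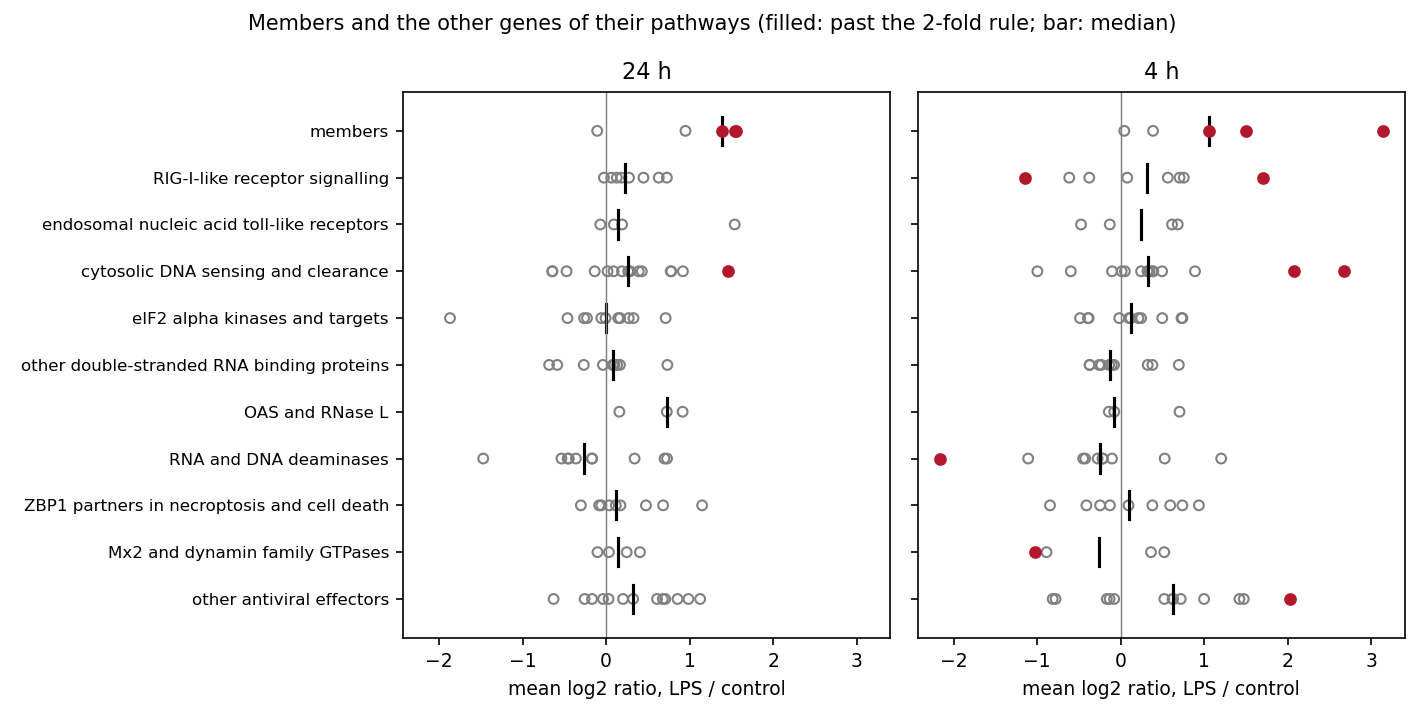
Mean log2 ratio of LPS over control at 24 h and at 4 h (horizontal axes) for the 5 members and for the measured genes of 10 pathway lists, 1 circle a gene. Filled circles met the 2-fold rule and bars are medians; beside the members, Samhd1 is the only filled circle at 24 h.

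The genes most like each member were taken by the Euclidean distance over the 4 arrays. For Mx1 these were Igtp (0.52), Tlr2 (0.64) and Vmn1r10 (0.64), and Eif2ak2 came at place 21 of all genes (0.99). For Eif2ak2 they were Saa-ps (0.39), Rdh12 (0.49) and Lyar (0.52). Zbp1 had Cpsf1 (0.22), Rer1 (0.26) and Ift27 (0.28) nearest, and Adar had Gpd2 (0.51), Acsl5 (0.55) and Dcaf4 (0.59). The nearest to Ifih1 were farther off, BC005537 (1.29), Reep3 (1.45) and Cnn3 (1.55). With 4 values a gene, such likeness is a description.

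Listed abundant transcripts and cell type markers were set beside the members. A list of abundant transcripts outside translation had 1 of 20 measured genes higher and 0 lower at 24 h and 14 higher and 1 lower at 4 h, with medians of 0.06 and 2.06. When the arrays were centred on this list, Zbp1 (-0.54) and Adar (-0.99) turned in sign at 4 h, the mean of Ifih1 stayed above 0 at 1.09 but with its arrays on opposite sides of 0, and Mx1 and Eif2ak2 lay at -1.66 and -2.0. At 24 h no member changed its call under that centring. The means of Ifih1 (1.49), Zbp1 (-0.18) and Adar (0.88) at 24 h then lay above their 4 h means. The order of the times for these genes thus depended on the centring, while Eif2ak2 and Mx1 kept theirs. Of cell type markers, 0 of 12 endothelial, 1 of 10 macrophage and leukocyte and 1 of 10 mural and fibroblast genes were higher at 24 h and none was lower. At 4 h 0, 0 and 6 of these were higher, and 1 endothelial gene and 1 mural and fibroblast gene were lower. The medians of these lists were -0.06, 0.15 and 0.12 at 24 h, and -0.04, -0.09 and 1.34 at 4 h. The part of abundance and of other cell types in the members' 4 h values was not tested, and in ratios of this kind a change in RNA per cell and a change in the share of cells cannot be told apart.

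**Figure D5:**
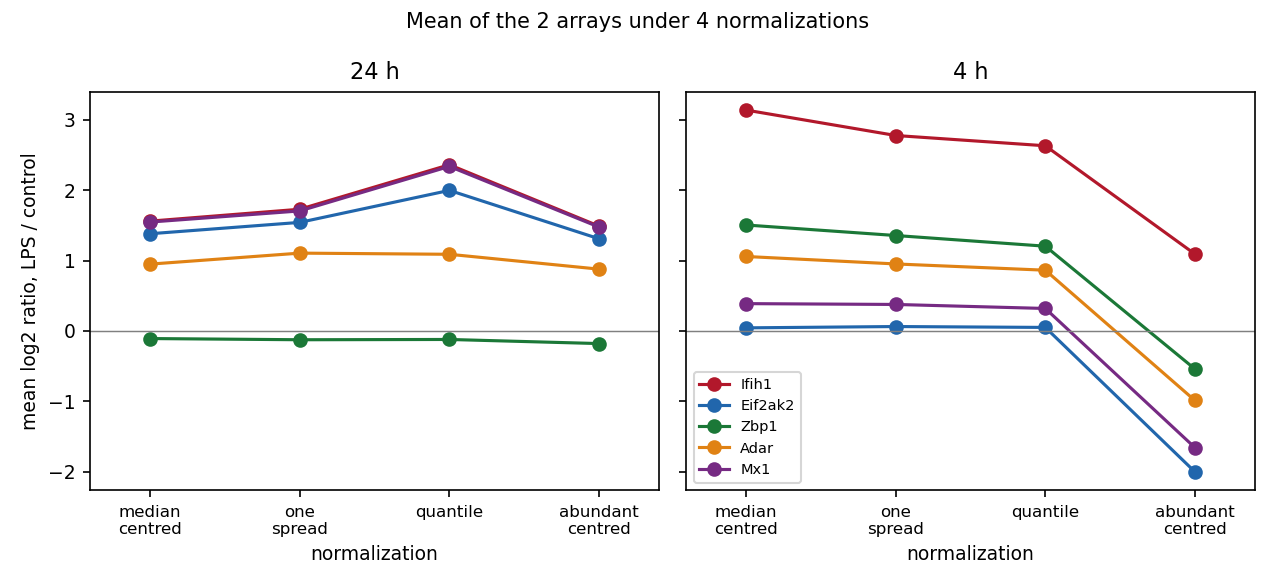
Mean log2 ratio of LPS over control (vertical axis) for each member at 24 h and at 4 h under 4 normalizations (horizontal axis). The values at 24 h keep their sides of 0, with Ifih1 and Mx1 almost on each other, while centring on abundant transcripts lowers all members at 4 h and leaves Ifih1 as the only 1 above 0, at 1.09.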

How the data were processed

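Per the labels, amplified RNA of LPS-treated and control SVEC cells was hybridised with 2 dyes, on Operon V1 long oligonucleotide arrays for 4 h. The deposited values are log2 ratios of the dyes, with a median of 0 per array; that scale was read from the values. How the arrays were scanned, background-corrected and normalized is not given in the sources used here.

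Of 32448 spots, 24344 had 1 gene symbol in the platform annotation, for 11138 genes, and 98 had several. With Python 3.11.15 and pandas 2.3.3, each array was centred on its median, reversed arrays were turned in sign, and spots of a gene were averaged. A call needed a mean of at least 1 and at least 1.5-fold on each array. The call was run on simulated arrays in which some genes were given shifts above the threshold. Noise was shuffled separately for each array, so a gene's own difference between dyes was not kept. That run says nothing about genes near the threshold, such as Adar. Precision is limited by the number of arrays.

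The members and lists were chosen with earlier results of these data known. Named genes are all members, list genes past the rule (at most 6 a list), 10 fixed relatives, of which Ddx58, Mavs and Oas2 were not analysed here, and the 3 genes nearest to each member. Alternatives were other centrings, scalings, treatment of zeros, averages and thresholds, and each array left out.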

Additional observations from a re-analysis of the deposited data

Results flagged for a closer look

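The LPS over control ratio of Zbp1 was below 0 on both arrays at 24 h, at a mean of -0.107, and above 0 on both arrays at 4 h, at a mean of 1.51. This contrast of signs drew attention because every array of one time lay on the other side of 0 from every array of the other time. The difference between the times was not tested, and the 24 h arrays, at -0.01 and -0.20, were close to 0. With the arrays centred on abundant transcripts, the mean of Zbp1 lay below 0 at both times, at -0.18 at 24 h and -0.54 at 4 h. Of the other genes named in the text, Ift27, picked as one of the 3 most like Zbp1, had the same contrast, at -0.171 at 24 h and 1.49 at 4 h, which follows from that choice.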

How the results depend on the processing

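No paired analysis was possible because the 2 arrays of a time are 1 RNA pair and the labels pair no arrays across times. Centring on abundant transcripts at 4 h turned Zbp1 to -0.54, Adar to -0.99, Trim25 to -0.34 and Plscr1 to -0.012. It gave Ifih1 1.09, Eif2ak2 -2.0 and Mx1 -1.66. Under it 0 members were higher and 2 lower, and 0 pathway genes higher and 76 lower. Of all genes, 0.781% were higher and 83.2% lower, since this centring subtracts 1 constant per array, 2.63 and 1.46. Quantile normalization gave Zbp1 1.20 and Adar 0.86 at 4 h and Eif2ak2 2.0 at 24 h. With it, 1 pathway gene was lower at 4 h and 8 higher at 24 h, beside 4.86% and 3.67% of all genes. Adar missed the rule at 4 h there and with arrays scaled to one spread (0.95). Scaling to one spread gave 4 pathway genes higher at 24 h, beside 2.33% of all genes. Each oligonucleotide by itself gave 2, beside 1.8% of all oligonucleotides. A mean of at least 4-fold left 1 member higher at 4 h and 0 at 24 h, beside 3.27% and 0.278% of all genes. It left 1 pathway gene lower at 4 h, beside 1.49% of all genes, and 0 higher at 24 h. The mean alone gave 7 pathway genes higher at 4 h, beside 11.7% of all genes. At 24 h it gave 4 higher and 2 lower, beside 3.48% and 2.51%. A mean of at least 1.5-fold gave 17 higher and 9 lower at 4 h, beside 16.6% and 13.2% of all genes. At 24 h it gave 19 and 6, beside 8.78% and 6.66%. With 1 array left out, the pathway genes higher at 24 h numbered 3 to 10 and the lower 4 to 5. Of all genes, 4.51% to 6.92% were then higher and 2.78% to 7.34% lower. At 4 h 9 to 14 pathway genes were higher and 3 to 6 lower, beside 12.4% to 13.3% and 8.94% to 9.04% of all genes. Leaving out an array moves a mean of 2 by less than their SD by construction, so it says nothing about stability, but it turned Adar at 24 h (-0.02) and Eif2ak2 at 4 h (-0.26) in sign, and with them, among the pathway genes named, Dhx58 (-0.41), Mfn1 (-0.19), Rnf135 (-0.02), Ripk3 (-0.02) and Mlkl (0.51) at 24 h and Tlr3 (-0.11), Mx2 (-0.10) and Mlkl (-0.06) at 4 h, none of which met the rule at that time. No intensity over background was at hand to limit faint spots.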
